A study of Mus musculus with 12 samples.

Results

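A set of 10 nuclear genes was followed in mouse retina, made up of genes that adjust mitochondria to low oxygen and paralogs of these. The genes were Ndufa4l2, Cox4i1, Cox4i2, Higd1a, Pdk1, Pdk2, Pdk3, Pdk4, Bnip3 and Bnip3l. They were picked by name, and all 10 had a single row among the 57073 gene models of the table. Of these 10, 9 had enough counts to be tested, among 18275 genes tested in all, and Pdk4 did not. The libraries came from retinas of C57BL/6 mice at postnatal day 17. In the normoxic group (6 libraries) the mice were kept in normoxic air, and in the group with oxygen-induced retinopathy (OIR, 6 libraries) the treatment label is 75% oxygen. High oxygen makes young pups lose retinal capillaries, and the poorly supplied retina becomes hypoxic once they breathe room air again. The labels give neither the days of exposure nor the animals behind each library, so the p-values cover library-to-library spread only, some of which may be technical.

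When oxygen is short, the hypoxia-inducible factors (HIF) change how mitochondria are built and fed. Pyruvate dehydrogenase kinases (Pdk genes) phosphorylate the pyruvate dehydrogenase complex and thereby hold pyruvate back from the citric acid cycle. Subunit 4 of cytochrome c oxidase (complex IV, where oxygen is consumed) exists in a common form, Cox4i1, and a form favoured in hypoxia, Cox4i2. Ndufa4l2, a relative of the complex IV subunit gene Ndufa4, is a HIF target that lowers oxygen use by the respiratory chain, Higd1a encodes a small inner membrane protein that supports complex IV, and Bnip3 and Bnip3l encode outer membrane receptors that hand mitochondria to autophagy. In the retina, photoreceptors are crowded with mitochondria and also turn much of their glucose into lactate.

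Total counts were 17361979 to 21594618 per library. The summed level of 8 rod markers was 39345 to 44300 CPM (counts brought to a common library size, with TMM factors of 0.974 to 1.01) in normoxic and 42703 to 47887 CPM in OIR libraries, and none of the 8 was at 0 counts, as a check of the labelled tissue. Libraries numbered 1 to 3 and 4 to 6 stood apart in earlier results of these data, and each fold change is therefore also given within these sets.

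Of the 9 tested genes, 7 were higher in OIR and 0 were lower by edgeR's quasi-likelihood test with Benjamini-Hochberg adjustment over all genes tested (threshold 0.05). Among all genes tested, 16.2% passed as higher, 14.8% as lower and 31.0% in either direction. No gene of the 9 was lower at an unadjusted p under 0.05, by DESeq2 or by limma. In 6 of the 10 genes every OIR library lay above every normoxic library, compared with 9.47% of the genes tested, and in 0 genes did every OIR library lie below (6.60% of the genes tested). The median log2 fold change of the 9 was 0.42, and that of all genes tested was -0.0079. The changes ranged widely. Ndufa4l2 rose 14.9-fold, Bnip3 2.01-fold, and Pdk1, Cox4i2, Bnip3l, Pdk3 and Higd1a by smaller factors of 1.24 to 1.62, while Cox4i1 and Pdk2 did not pass the test.

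**Figure D1:**
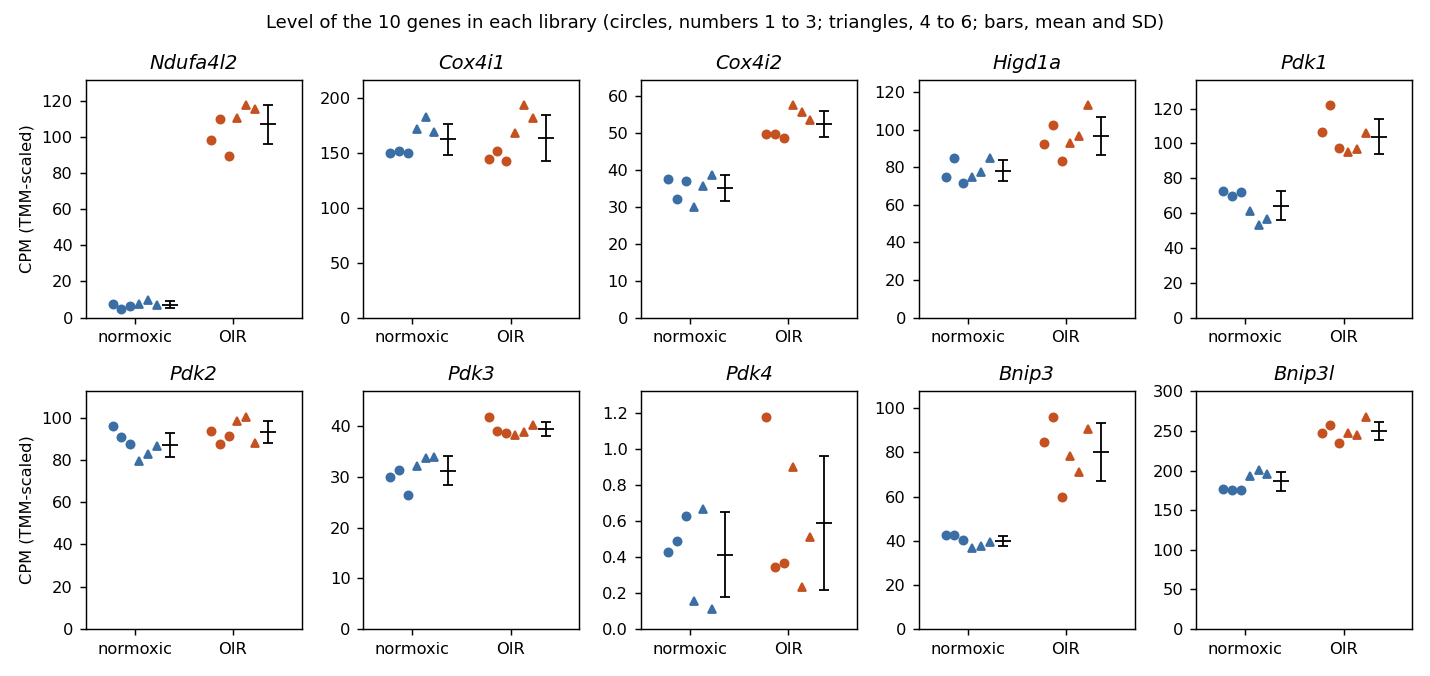
Level of each of the 10 genes in each library, in CPM scaled with TMM factors (linear axes starting at 0). Points are libraries (circles, replicate numbers 1 to 3; triangles, 4 to 6) and bars show mean and SD, n = 6 per group. The groups are apart for Ndufa4l2, Cox4i2, Pdk1, Pdk3, Bnip3 and Bnip3l, and overlap for Higd1a, Cox4i1, Pdk2 and Pdk4.

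Ndufa4l2 (chromosome 10, 127350836 to 127353023, plus strand, GRCm39) had the largest rise of the 10. The lowest, median and highest of its 6 normoxic libraries were 4.71, 7.19 and 10.002 CPM, and those of its OIR libraries were 89.8, 111 and 118 CPM. The groups were far apart, and within OIR the 3 libraries numbered 4 to 6 (111 to 118 CPM) all lay above those numbered 1 to 3 (89.8 to 110 CPM). The mean went from 7.16 ± 1.75 to 107 ± 10.8 CPM (SD, n = 6 each), or 14.9-fold (log2 fold change 3.90 ± 0.12 SE, edgeR adjusted p = 5.3e-13). By this fold change the gene ranked 21 from the top among the 18275 tested. Within numbers 1 to 3 the log2 fold change was 4.04 ± 0.11, and within numbers 4 to 6 it was 3.80 ± 0.10.

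Its paralog Ndufa4, which encodes a standard subunit of complex IV, did not pass the test, with a log2 difference of -0.016 ± 0.092 (edgeR adjusted p = 0.921). Levels of different genes were compared as deposited FPKM (read counts divided by gene length and by library total). Ndufa4 had 98.7 ± 16.0 FPKM in normoxic and 96.9 ± 9.44 FPKM in OIR libraries, while Ndufa4l2 had 6.54 ± 1.595 and 97.3 ± 9.16 FPKM. Ndufa4l2 thus made up 5.03% to 7.12% of the FPKM of the pair in normoxic libraries and 47.9% to 52.4% in OIR libraries. In OIR libraries the FPKM ranges of the 2 genes overlapped, at 87.9 to 109 for Ndufa4 and 82.5 to 106 for Ndufa4l2.

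Cox4i1 (chromosome 8, 121394961 to 121400946, plus strand) had the highest mean FPKM of the 10 in both groups. Its lowest, median and highest levels were 150, 160 and 183 CPM in normoxic and 143, 160 and 194 CPM in OIR libraries. The groups overlapped, with means of 163 ± 14.0 and 164 ± 20.9 CPM and a log2 difference of 0.010 ± 0.076 (edgeR adjusted p = 0.938). Its libraries parted by replicate number instead. In normoxic libraries numbers 1 to 3 lay at 150 to 152 CPM and numbers 4 to 6 at 169 to 183 CPM, and in OIR libraries the same sets lay at 143 to 152 and 168 to 194 CPM. Within the sets the log2 difference was -0.040 ± 0.047 and 0.055 ± 0.058.

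Cox4i2 (chromosome 2, 152596093 to 152606957, plus strand) rose in OIR. Its lowest, median and highest levels were 29.8, 36.2 and 38.6 CPM in normoxic and 48.6, 51.6 and 57.5 CPM in OIR libraries, and the groups did not overlap. The rise was 1.49-fold, with a log2 fold change of 0.58 ± 0.07 (edgeR adjusted p = 3.1e-06), 0.48 ± 0.07 within numbers 1 to 3 and 0.68 ± 0.09 within 4 to 6. Cox4i2 took 25.5% to 32.9% of the FPKM of the 2 subunit 4 genes in normoxic libraries and 36.1% to 40.4% in OIR libraries. The larger share went with a higher Cox4i2 level beside a Cox4i1 level whose groups overlapped. Lonp1, which encodes the mitochondrial protease known to degrade the COX4-1 protein in hypoxia, had a log2 difference of -0.0036 ± 0.069 (edgeR adjusted p = 0.977).

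Ndufa4l2 and Cox4i2, together with Higd1b, are known as genes enriched in pericytes, the contractile support cells of capillaries. All 10 pericyte markers of the list used here also rose in OIR, with a median log2 fold change of 1.22, where 16.2% of all genes passed as higher. Their summed level was 843 to 1009 CPM in normoxic and 1322 to 1494 CPM in OIR libraries, and none of the 10 was at 0 counts. Most of this sum was Vtn, with means of 709 ± 82.9 and 802 ± 40.9 CPM. Vtn rose only 1.13-fold, just past the threshold (edgeR adjusted p = 0.0496), and its groups overlapped. Among the 10 markers, Des, Mcam and Rgs5 rose 4.19-fold, 4.64-fold and 2.76-fold (edgeR adjusted p = 1.5e-09, 5.6e-09 and 7.1e-09). Of 4 tested smooth muscle markers 3 rose, while Tagln and Cnn1 were too low to test. The summed level of the whole list was 30.6 to 34.7 CPM in normoxic and 70.3 to 111 CPM in OIR libraries. Most of this rise was Acta2, with means of 5.29 ± 0.671 and 52.7 ± 12.9 CPM. Smtn had means of 17.6 ± 2.36 and 24.0 ± 2.66 CPM with overlapping groups, and Myh11 had 1.41 ± 0.396 and 3.04 ± 0.599 CPM. The part of these cells in the rise of Ndufa4l2 and Cox4i2 was not tested. In bulk tissue, more cells of a type and more RNA per cell cannot be told apart.

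Higd1a (chromosome 9, 121677629 to 121687428, minus strand) rose 1.24-fold, the smallest of the 7 rises. Its lowest, median and highest levels were 71.9, 76.3 and 85.2 CPM in normoxic and 83.4, 95.03 and 113 CPM in OIR libraries. Of the 6 OIR libraries, 5 lay above all normoxic ones, and OIR replicate 3 lay among them. The log2 fold change was 0.31 ± 0.07 (edgeR adjusted p = 0.00162), 0.26 ± 0.07 within numbers 1 to 3 and 0.35 ± 0.07 within 4 to 6. Its relative Higd1b also rose, from a low level of 1.51 ± 0.262 to 5.22 ± 1.21 CPM, a 3.45-fold rise (edgeR adjusted p = 6.8e-07). Higd2a, a relative with a role in assembling complex IV, had a log2 difference of -0.013 ± 0.070 (edgeR adjusted p = 0.916).

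Most other complex IV genes did not pass the test. Of 17 tested respiratory chain partners and paralogs (Ndufa4, Higd1b, Higd2a, other nuclear complex IV subunit genes, Lonp1 and the cytochrome c gene Cycs), 1 rose, 0 fell and 16 did not pass edgeR's test, where 31.0% of all genes passed. The 1 that rose was Higd1b. The list's median log2 fold change was -0.013. Among the complex IV genes and their relatives, those called were thus Ndufa4l2, Cox4i2, Higd1a and Higd1b.

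Of the 4 pyruvate dehydrogenase kinase genes, 2 rose, 1 did not pass the test and 1 was too low to test. Pdk1, the classic HIF target of the family (chromosome 2, 71703568 to 71734202, plus strand), had lowest, median and highest levels of 53.2, 65.4 and 72.7 CPM in normoxic and 95.1, 102 and 122 CPM in OIR libraries. The groups did not overlap, and OIR replicate 2 was the highest at 122 CPM. The rise was 1.62-fold, with a log2 fold change of 0.69 ± 0.08 (edgeR adjusted p = 3.3e-06). Normoxic libraries numbered 1 to 3 (69.7 to 72.7 CPM) lay above those numbered 4 to 6 (53.2 to 61.0 CPM), and the log2 fold change was 0.60 ± 0.07 within the former set and 0.80 ± 0.07 within the latter.

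Pdk3, the X-linked member of the family (chromosome X, 92808213 to 92875807, minus strand), rose 1.26-fold. Its levels were 26.4, 31.7 and 33.9 CPM (lowest, median, highest) in normoxic and 38.2, 38.9 and 41.9 CPM in OIR libraries. The groups did not overlap, and the OIR libraries lay close together. The log2 fold change was 0.34 ± 0.06 (edgeR adjusted p = 3.8e-04), 0.45 ± 0.08 within numbers 1 to 3 and 0.23 ± 0.07 within 4 to 6 (edgeR adjusted p = 8.8e-05 and 0.0314).

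Pdk2, the widely expressed kinase (chromosome 11, 94917084 to 94932180, minus strand), had levels of 79.8, 87.0 and 96.1 CPM in normoxic and 87.7, 92.5 and 101 CPM in OIR libraries. The groups overlapped, and the log2 difference of 0.098 ± 0.053 did not pass (edgeR adjusted p = 0.179). The sets of replicate numbers gave different values, with -0.0076 ± 0.055 within 1 to 3 and 0.21 ± 0.06 within 4 to 6, where it passed (edgeR adjusted p = 0.932 and 0.0266). A test of the difference between the sets themselves gave an edgeR adjusted p of 0.113. Across the 9 tested genes 0 passed that test of the sets, and 1, Pdk2, had an unadjusted p under 0.05, where 8.21% of all genes passed after adjustment.

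Pdk4, known as the kinase induced by fasting and fatty acids (chromosome 6, 5483351 to 5496309, minus strand), was barely detected. It had 2 to 12 counts per normoxic library and 4 to 21 per OIR library, 45 and 65 in sum. The ratio of counts per library total was 1.43 (95% exact counting interval 0.964 to 2.14, which covers counting error only), so a difference was not detectable at this depth.

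Per length, Pdk2 was the leading kinase message in every library. Pdk2 held 55.2% to 58.9% of the FPKM of the 4 Pdk genes in normoxic and 47.2% to 53.5% in OIR libraries, without overlap. The share of Pdk1 was 14.7% to 19.6% in normoxic and 20.9% to 26.7% in OIR libraries, also without overlap. The share of Pdk3 overlapped, at 21.7% to 28.5% and 25.5% to 27.3%, and that of Pdk4 was at most 0.56% in any library. The summed FPKM of the 4 genes was 45.8 to 51.1 in normoxic and 55.8 to 59.8 in OIR libraries.

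**Figure D2:**
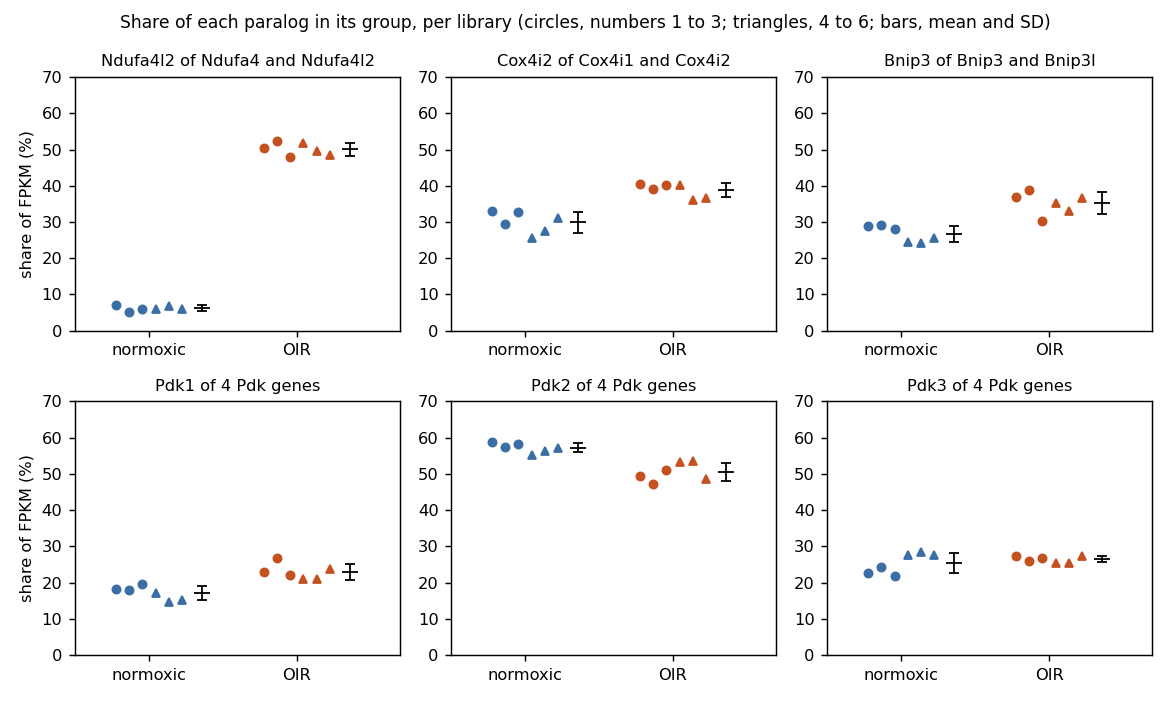
Share of a paralog's FPKM in the summed FPKM of its set, in percent, per library (linear axes starting at 0; circles, replicate numbers 1 to 3; triangles, 4 to 6; bars, mean and SD, n = 6 per group). Ndufa4l2 goes from at most 7.12% to at least 47.9% of its pair, Cox4i2, Bnip3 and Pdk1 take larger shares in OIR, Pdk2 takes a smaller one, and the Pdk3 shares overlap.

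The target complex of these kinases and its neighbours included genes that fell. Of 13 genes of pyruvate dehydrogenase and pyruvate use, 2 rose, 5 fell and 6 did not pass edgeR's test (median log2 fold change -0.17). Among all genes tested, 16.2% passed as higher and 14.8% as lower. Ldha, which encodes the lactate dehydrogenase subunit that favours lactate, rose 1.32-fold (log2 0.40 ± 0.05, edgeR adjusted p = 1.0e-05), and Pdpr, a regulator of the phosphatase that opposes the kinases, rose 1.40-fold (adjusted p = 0.00617). Ldhb, the subunit that favours pyruvate, fell by 0.32 ± 0.07 on the log2 scale (edgeR adjusted p = 9.1e-04). Pdhb, which encodes the beta subunit of the first enzyme of the complex, fell by 0.17 ± 0.04, and Pdp2, a catalytic subunit of the opposing phosphatase, fell by 0.34 ± 0.09 (edgeR adjusted p = 0.00267 and 0.00624). The mitochondrial pyruvate carrier genes Mpc1 and Mpc2 were the other two that fell, by 0.31 and 0.21, and were named after their values were seen. Pdha1, the alpha subunit that the kinases phosphorylate, had a log2 difference of 0.14 ± 0.09 (edgeR adjusted p = 0.223).

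Bnip3 (chromosome 7, 138492565 to 138511248, minus strand) rose 2.01-fold, the second largest rise of the 10. Its lowest, median and highest levels were 36.6, 39.8 and 42.4 CPM in normoxic and 59.9, 81.6 and 96.3 CPM in OIR libraries. The groups did not overlap, and OIR libraries spread widely, from replicate 3 at 59.9 to replicate 2 at 96.3 CPM. The log2 fold change was 1.01 ± 0.09 (edgeR adjusted p = 1.4e-07), 0.94 ± 0.11 within numbers 1 to 3 and 1.08 ± 0.08 within 4 to 6.

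Bnip3l, also called Nix (chromosome 14, 67222688 to 67246326, minus strand), had the higher FPKM of the pair in every library and rose 1.34-fold. Its levels were 175, 185 and 201 CPM in normoxic and 235, 247 and 268 CPM in OIR libraries, without overlap. The log2 fold change was 0.42 ± 0.05 (edgeR adjusted p = 2.4e-06), 0.49 ± 0.05 within numbers 1 to 3 and 0.37 ± 0.05 within 4 to 6. Bnip3 held 24.2% to 29.2% of the FPKM of the pair in normoxic and 30.2% to 38.9% in OIR libraries. Bnip3l is also known for clearing mitochondria from maturing red blood cells. Red blood cell genes had a summed level of 55.9 to 133 CPM in normoxic and 115 to 236 CPM in OIR libraries. Of these, 4 of 4 tested rose (16.2% of all genes tested), 3 of the 7 with a row were too low to test, and none was at 0 counts in all libraries. The part of red blood cell genes in the rise of Bnip3l was not tested.

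Few other genes of mitochondrial quality control and autophagy passed the test. Of 30 tested, 2 rose, 3 fell and 25 did not pass edgeR's test, and the median log2 fold change was -0.013. Among all genes tested, 31.0% passed in either direction. Ulk1, the kinase that starts autophagy, rose 1.21-fold, and Gabarap, of the family of proteins that the Bnip3 receptors bind, rose 1.14-fold (edgeR adjusted p = 0.00328 and 0.0214). Fundc1, another mitophagy receptor of hypoxia, fell by 0.25 ± 0.06 on the log2 scale (edgeR adjusted p = 0.00191). The outer membrane fusion gene Mfn2 and the mitophagy receptor gene Fkbp8 fell by 0.15 and 0.11 (edgeR adjusted p = 0.0083 and 0.045). Pink1, which encodes a kinase that marks damaged mitochondria, had a log2 difference of 0.044 ± 0.051 (edgeR adjusted p = 0.553).

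**Figure D3:**
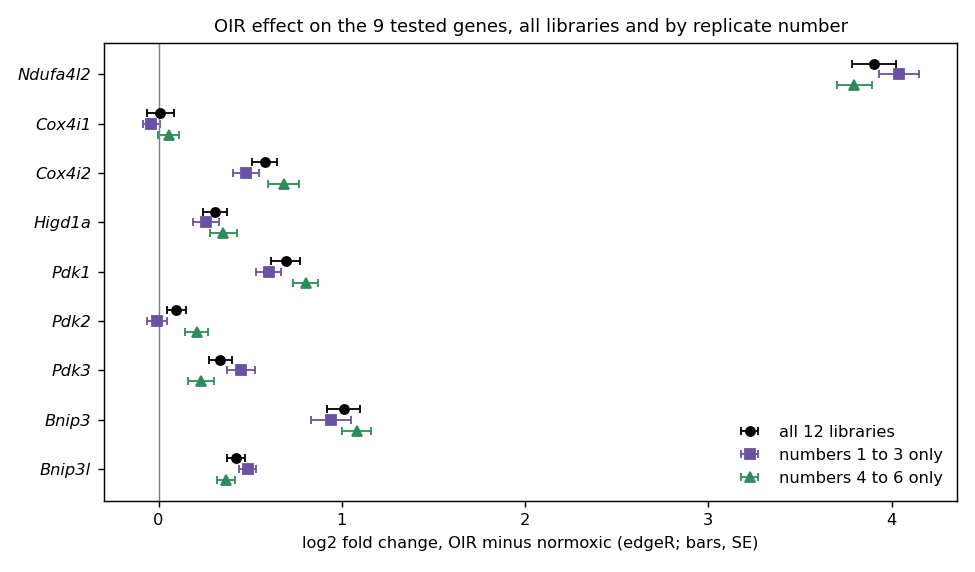
Log2 fold change of the 9 tested genes, OIR minus normoxic, from edgeR (points) with SE (bars), for all 12 libraries, for libraries numbered 1 to 3 and for those numbered 4 to 6. With all 12 libraries, Ndufa4l2 lies at 3.90, Bnip3 at 1.01, the other 5 called genes between 0.31 and 0.69, Pdk2 at 0.098 and Cox4i1 at 0.010. The sets of numbers spread around these values, with Pdk2 at -0.0076 in 1 to 3 and 0.21 in 4 to 6.

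HIF proteins bind DNA at short sites with the core letters ACGTG or GCGTG. The RefSeq promoter table (GRCm38.p6, a different build from the GRCm39 of the counts) held 6 of the 10 genes, and Ndufa4l2, Cox4i1, Cox4i2 and Bnip3l had no entry. Both cores were searched on both strands in the 250 bases before the transcription start. For the 4 called genes with an entry, the window at the first listed start site is printed, 5′ to 3′ on the gene's strand, with the core letters in capitals (ACGTG and GCGTG, or CACGT and CACGC where the core lies on the opposite strand).
Bnip3, chr7:138909507-138909756 (minus strand): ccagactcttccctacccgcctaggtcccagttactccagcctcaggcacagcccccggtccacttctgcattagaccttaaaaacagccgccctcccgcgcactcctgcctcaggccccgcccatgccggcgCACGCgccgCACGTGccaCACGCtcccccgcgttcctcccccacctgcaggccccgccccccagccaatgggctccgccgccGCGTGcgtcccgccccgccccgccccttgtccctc
Pdk1, chr2:71872974-71873223 (plus strand): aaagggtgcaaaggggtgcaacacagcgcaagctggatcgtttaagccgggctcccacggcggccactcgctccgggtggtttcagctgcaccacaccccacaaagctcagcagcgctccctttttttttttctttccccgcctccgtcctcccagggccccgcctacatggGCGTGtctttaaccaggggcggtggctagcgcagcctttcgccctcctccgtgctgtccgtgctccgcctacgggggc
Pdk3, chrX:93832151-93832400 (minus strand): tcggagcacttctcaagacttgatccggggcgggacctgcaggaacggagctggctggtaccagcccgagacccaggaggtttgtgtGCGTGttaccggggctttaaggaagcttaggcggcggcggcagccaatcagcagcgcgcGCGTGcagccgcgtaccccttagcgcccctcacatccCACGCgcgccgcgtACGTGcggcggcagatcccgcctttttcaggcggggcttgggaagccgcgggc
Higd1a, chr9:121857797-121858046 (minus strand): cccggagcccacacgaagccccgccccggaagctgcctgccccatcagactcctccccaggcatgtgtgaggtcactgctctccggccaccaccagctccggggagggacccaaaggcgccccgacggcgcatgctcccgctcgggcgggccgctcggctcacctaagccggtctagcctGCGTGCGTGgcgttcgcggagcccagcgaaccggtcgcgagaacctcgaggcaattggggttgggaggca
The Bnip3 window had 5 matches, of which 2 are the same CACGTG read on either strand, starting 108 and 107 bases before the start. Pdk3 had 4 matches, Higd1a 2, in an overlapping GCGTGCGTG, and Pdk1 1, starting 78 bases before the start. Matches were not limited to genes that rose. The first listed Pdk2 window held a CACGTG, counted as 2 matches, and the Pdk4 window held 1 match, while the second listed windows of Pdk1 and Pdk2 had 0. Of all 32851 windows of this length in the table, 38.6% held at least 1 match and 6.58% held 3 or more. Both cores contain the letters CG, and these windows were not matched for CG content. In 300 bases around the start, CG occurred 27 times for Bnip3, 35 for Pdk3, 33 for Higd1a and 25 for Pdk1. It occurred 25 times in the first Pdk2 window and 12 times for Pdk4. In annotated transcripts, bases just after the listed start were first found at offset 576 for Higd1a. The offset was 10 for Bnip3 and Pdk1 and 61 for Pdk3, so the Higd1a window may lie inside a longer transcript. For the first Pdk2 window, with the CACGTG, such bases were found in no annotated transcript of the gene. The second Pdk2 window, with 0 matches, had an offset of 10, and the Pdk4 window had an offset of 7. A match is a description of the letters, not of binding.

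Ordered by FPKM, the normoxic levels ran Cox4i1 (105 FPKM), Bnip3l (48.4), Cox4i2 (44.6), Pdk2 (27.6), Higd1a (25.8), Bnip3 (17.6), Pdk3 (12.2), Pdk1 (8.27), Ndufa4l2 (6.54) and Pdk4 (0.118). Neighbours whose ranges over the 6 libraries overlapped were Bnip3l and Cox4i2, Pdk2 and Higd1a, and Pdk1 and Ndufa4l2. In OIR libraries the order was Cox4i1 (105 FPKM), Ndufa4l2 (97.3), Cox4i2 (66.2), Bnip3l (64.5), Bnip3 (35.2), Higd1a (31.7), Pdk2 (29.4), Pdk3 (15.3), Pdk1 (13.3) and Pdk4 (0.167). There Cox4i1 overlapped with Ndufa4l2, Cox4i2 with Bnip3l, Bnip3 with Higd1a, Higd1a with Pdk2 and Pdk3 with Pdk1. By its mean, Ndufa4l2 moved from the ninth to the second place. The OIR ranges of Bnip3 (26.6 to 42.7 FPKM) and Pdk2 (27.2 to 31.5 FPKM) also overlapped. The lengths that the deposited FPKM imply are shorter than the table's length column for all 10 genes (788 bases for Cox4i2, 7779 for Pdk1), and this order and the shares rest on them.

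Among OIR libraries, replicate 3, the most deeply sequenced one, was the lowest in 6 of the 10 genes (Ndufa4l2, Cox4i1, Cox4i2, Higd1a, Bnip3 and Bnip3l). Without it, the log2 fold changes of Bnip3 and Higd1a were 1.08 and 0.35, and the same 7 genes passed edgeR's test.

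For each of the 7 called genes, the 3 tested genes with the most similar profile were sought among 10306 properly named genes with a mean of at least 10 CPM. Likeness was the mean absolute difference over the 12 libraries in log2 CPM, each gene taken relative to its normoxic mean, so that smaller is more alike. Nearest to Ndufa4l2 were the glial filament gene Gfap (0.29), the vascular peptide gene Apln (0.36) and the smooth muscle actin gene Acta2 (0.46). Apln and Acta2 had normoxic means of 6.77 and 5.29 CPM and met the minimum only through OIR libraries, at 108 and 52.7 CPM. The log2 fold changes of Gfap, Apln and Acta2 were 3.77, 4.00 and 3.31, so their likeness says little beyond a rise of similar size. Nearest to Bnip3 were Nr4a1 (0.080), Anxa5 (0.10) and the HIF prolyl hydroxylase gene Egln1 (0.10). Nearest to Bnip3l were Ldha (0.033), Tpt1 (0.040) and Dusp8 (0.044). Uaca, Slc41a1 and Prkab2 lay nearest to Pdk1 (0.074 to 0.085), and Serpinb6a, Gab1 and Ddr1 nearest to Cox4i2 (0.078 to 0.082). Anp32e, Jade3 and Mob1a lay nearest to Pdk3 (0.046 to 0.057), and Ppp1r15a, Antxr1 and Mfap2 nearest to Higd1a (0.069 to 0.071). Jade3, with means of 9.56 CPM in normoxic and 12.0 CPM in OIR libraries, also met the minimum only through OIR libraries. The likeness of genes with a small fold change rests on a small shared difference.

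**Figure D4:**
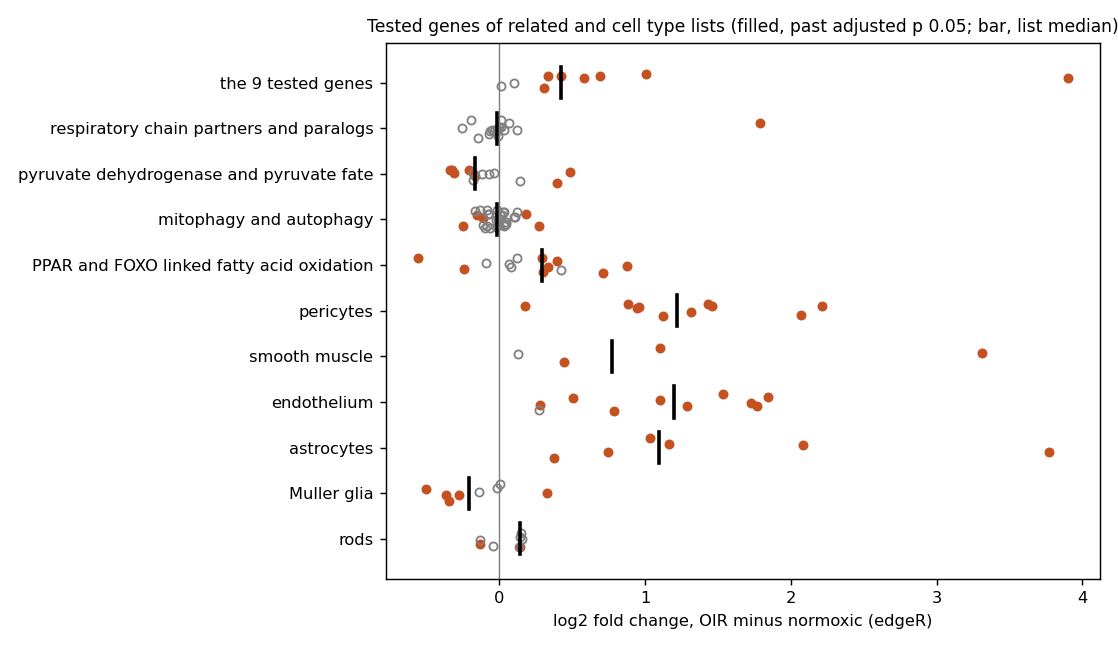
Log2 fold change (OIR minus normoxic, edgeR) of each tested gene of the lists named on the left (filled, past an adjusted p of 0.05; open, not past; vertical bar, list median; vertical scatter only separates points). The medians are 0.42 for the 9 genes, -0.013 for respiratory chain partners, -0.17 for pyruvate dehydrogenase genes, -0.013 for mitophagy genes and 1.22 for pericyte markers.

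Other cell type markers were counted with the same edgeR fit, in which 16.2% of all genes tested passed as higher and 14.8% as lower. Endothelial markers rose in 9 of 10 (summed level 263 to 330 CPM in normoxic and 427 to 578 CPM in OIR libraries), astrocyte markers in 6 of 6 (49.9 to 70.2 and 241 to 405 CPM) and microglia and macrophage markers in 6 of 8 (45.3 to 53.5 and 86.2 to 104 CPM). Most of the astrocyte sum in OIR libraries was Gfap, with means of 16.4 ± 3.60 CPM in normoxic and 225 ± 63.9 CPM in OIR libraries. Müller glia markers rose in 1 and fell in 4 of 8 (3107 to 3596 and 2586 to 3356 CPM), rod markers rose in 1 and fell in 1 of 8, cone markers fell in 1 of 7 (1100 to 1845 and 1133 to 1567 CPM), and lens markers fell in 5 of 9 (8.89 to 49.2 and 3.15 to 16.0 CPM). None of these markers was at 0 counts in all libraries. Their part in the values of the 10 genes was not tested.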

How the data were processed

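RNA of 12 retina libraries was captured by poly-A tail, per the labels' protocols. The authors deposited whole-number counts per gene and FPKM, per the file headers. Trimmomatic, HISAT2 version 2.0.5, HTSeq and GRCm39 are named without roles, per the submitters' processing notes. Which annotation, strand setting and read filters were used is not stated in those sources. Without strand, overlapping genes cannot be told apart.

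Groups and replicate numbers came from the titles. The count test was edgeR's (version 4.0.16, under R version 4.3.3), with filterByExpr (minimum count 10, total 15), TMM scaling, quasi-likelihood test, Benjamini-Hochberg adjustment over 18275 genes, threshold 0.05. SE is the absolute log2 fold change divided by the square root of F. The procedure was tested on simulated data. DESeq2 version 1.42.0, limma version 3.58.1 on log2(FPKM + 1) and log2(FPKM + 0.1), other filters and scalings, blocks and left-out libraries were alternatives. No 2 libraries of a group were alike within sampling noise (chi-square of 3.04 to 15.4 for each degree of freedom), and each counted as 1 sample. The genes, lists, alternatives and number sets were chosen with earlier results of these data known. Named from related lists were up to 3 called genes per direction with the smallest adjusted p, paralogs, and 3 nearest profiles per called gene. Named outside this rule were Lonp1, Pdha1, Pink1 and Cpt1a, which were not called, Mpc1 and Mpc2, and the markers Vtn, Tagln and Cnn1. Counts of 17361979 to 21594618 per library limit the precision of low genes such as Pdk4.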

Additional observations from a re-analysis of the deposited data

How the results depend on the processing

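Over 24 alternatives, 7 or 8 of the 9 tested genes passed as higher and 0 as lower, and the 7 called genes kept their direction and call in each. The call of Pdk2 was gained in numbers 4 to 6 only (0.21), and its sign turned in numbers 1 to 3 only (-0.0076). Cox4i1 (0.010) changed sign with library totals only (-1e-04), with limma on log2(FPKM + 1) and log2(FPKM + 0.1) (-0.0037 and -0.0038), in numbers 1 to 3 only (-0.040) and when single libraries were left out (-0.044 to 0.046), always within its SE; the cause was not tested. Of all genes, 5673 passed (2704 lower), against 3671 (1536 lower) in numbers 4 to 6 only, 7226 (3456 lower) in numbers 1 to 3 only and 6429 with a block for the number set; the cause was not tested. Leaving out single libraries gave 5073 to 5870 genes and 7 of the 9 throughout. Replicate numbers showed little pairing of the libraries: correlations of deviations between same-numbered libraries were -0.017 to 0.12. Of the libraries, 2 of 6 normoxic and 1 of 6 OIR correlated best with their own number. Whether equal numbers stand for a pair is not given in the labels. A replicate block gave 5675 genes and the same 7 of the 9.

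Shares taken from counts instead of FPKM, and so not per length, were for normoxic and OIR libraries 17.8% and 24.4% for Cox4i2 (29.9% and 38.8% from FPKM), 4.96% and 44.3% for Ndufa4l2 (6.17% and 50.1%), 17.7% and 24.2% for Bnip3 (26.7% and 35.1%), 35.0% and 43.7% for Pdk1 (17.1% and 22.8%), 47.6% and 39.4% for Pdk2 (57.2% and 50.5%) and 17.2% and 16.6% for Pdk3 (25.4% and 26.4%). By counts Pdk1 exceeded Pdk2 in the OIR mean, and of these 6 shares the direction between groups turned for Pdk3. Low counts limit Pdk4.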

Other observations

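Genes of fatty acid oxidation and of the PPAR and FOXO factors, which are known to control Pdk4, went both ways. Of 13 tested, 6 rose, 2 fell and 5 did not pass edgeR's test (median log2 fold change 0.29). Among all genes tested, 16.2% passed as higher and 14.8% as lower. Ucp2, an inner membrane carrier gene, rose 1.63-fold, and the transcription factor genes Foxo3 and Ppard also rose, 1.23-fold and 1.26-fold (in edgeR, adjusted p = 7.1e-06, 2.1e-04 and 7.8e-04). Cpt1c, the neuronal form of the carnitine palmitoyltransferase genes, fell by 0.56 ± 0.07 on the log2 scale, and Acadvl, which encodes the dehydrogenase for very long chains, fell by 0.24 ± 0.07 (edgeR adjusted p = 3.9e-06 and 0.00856). Cpt1a, which encodes the form that controls fatty acid entry in most tissues, had a log2 difference of 0.064 ± 0.046 (adjusted p = 0.324). These changes stood beside a Pdk4 level of 2 to 21 counts per library.

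No library stood apart by its gap to the others in the 34 groups of 6 values checked (10 genes and 7 shares in 2 groups).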
